A study of Caenorhabditis elegans with 2 samples.

Results

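Histone genes are described here as sites of possible binding by the GFP-tagged ZK185.1 protein of Caenorhabditis elegans, a C2H2-type domain-containing protein by its RefSeq description. The members were the 72 nuclear protein-coding genes whose Ensembl symbol is "his-" and a number, out of 19973 nuclear protein-coding genes in all. The material was whole young adult hermaphrodites of strain OP474 (unc-119(tm4063) III; wgIs474), taken 56.25 h after synchronization as starved L1 larvae. OP474 is 1 transgenic line in the unc-119 mutant background. It stably carries ZK185.1 fused at its C terminus to GFP and FLAG, and chromatin was precipitated with an antibody to GFP. There were 2 biological replicates of 1 group, so no condition could be compared with another, and no untagged or wild-type worms were analysed here. Sequencing depth is unknown from the peak lists.

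Core histones package DNA into nucleosomes, each an octamer of H2A, H2B, H3 and H4, and the linker histone H1 binds between nucleosomes. Most metazoan core histone genes are expressed in S phase, lack introns and give mRNAs that end in a stem-loop, while variants such as H3.3 are expressed outside S phase as well. In C. elegans the core genes lie in small clusters, with H2A next to H2B and H3 next to H4, each pair read outward from a shared stretch of DNA. In the adult worm the dividing cells are those of the germ line.

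RefSeq products gave 17 H2A, 16 H2B, 20 H3 and 16 H4 genes. The other 3 members were not typed, namely his-24, known as an H1 gene, and his-39 and his-73, annotated only as proteins with a histone domain. The 72 members carry only 50 distinct symbols in Ensembl, because copies share a name, so they are called here by their 72 distinct RefSeq symbols, matched by WormBase ID. Of them, 67 had another member within 5 kb and formed 14 clusters of 2 to 13 genes, and 5 were single. The separation was wide. The clustered gene farthest from its nearest neighbour was his-39, at 987 bp, and the single gene nearest to another member was his-73, at 633914 bp. The single genes were his-24, his-73, and the H3.3-type genes his-71, his-72 and his-74. The clusters held 31 head-to-head pairs, of which 16 joined H2A and H2B, 14 joined H3 and H4, and 1, his-67/his-68, joined H4 and H2A. Between the starts of a pair lay 227 to 368 bp, with a median of 258 bp.

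The stretches upstream of 4 loci are shown first because they carry the strongest, a moderate, a weak and no region, and because they share a word. All are on ce11, plus strand, 5′ to 3′, read from the RefSeq WBcel235 genome. Capitals mark the 8-base words GGGGACAC and TGCGGGGA or their reverse complements GTGTCCCC and TCCCCGCA, which overlap where both are present. The first sequence ends just before the start of his-37 (chrV:9546905-9547104). The next is 253 of the 327 bases between his-61, read to the left, and his-62, read to the right (chrIV:7486218-7486470). The third fills the space between his-4 and his-3 (chrV:16040516-16040807), and the last that between his-2 and his-1 (chrV:16042284-16042519).
his-37 upstream: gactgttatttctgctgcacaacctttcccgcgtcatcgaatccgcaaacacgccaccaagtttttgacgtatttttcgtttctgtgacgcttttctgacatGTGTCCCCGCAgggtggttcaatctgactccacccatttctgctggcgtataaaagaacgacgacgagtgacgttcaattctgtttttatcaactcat
his-61/his-62 between: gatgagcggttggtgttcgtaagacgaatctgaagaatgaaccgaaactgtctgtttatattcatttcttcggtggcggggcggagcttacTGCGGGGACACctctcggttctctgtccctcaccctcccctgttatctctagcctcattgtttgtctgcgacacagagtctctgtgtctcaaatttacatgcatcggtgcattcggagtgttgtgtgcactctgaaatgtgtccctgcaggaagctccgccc
his-4/his-3 between: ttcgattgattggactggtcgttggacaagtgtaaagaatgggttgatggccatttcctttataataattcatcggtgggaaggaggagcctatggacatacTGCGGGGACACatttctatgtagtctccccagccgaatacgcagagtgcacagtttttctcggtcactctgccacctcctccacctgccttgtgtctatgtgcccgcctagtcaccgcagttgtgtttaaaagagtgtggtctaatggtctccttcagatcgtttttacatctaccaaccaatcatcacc
his-2/his-1 between: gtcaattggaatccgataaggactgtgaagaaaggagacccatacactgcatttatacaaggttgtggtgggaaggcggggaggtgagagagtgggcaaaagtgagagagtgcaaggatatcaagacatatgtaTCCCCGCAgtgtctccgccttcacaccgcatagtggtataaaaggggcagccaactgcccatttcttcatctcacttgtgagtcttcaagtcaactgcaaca
The thresholded peak upstream of his-37 covers bases 21 to 200 of its sequence, with the summit at base 133 and the capitals starting at base 103. Between his-61 and his-62 the peak covers bases 78 to 164, the summit is base 104 and the capitals start at base 92. The pooled relaxed region between his-4 and his-3 has its summit at base 172 and the capitals at base 103. No list had a summit in the last stretch, although 100% of its words of 31 bases occur once in the genome.

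A peak was counted for a gene when its summit lay from 1000 bp upstream to 200 bp downstream of the annotated start, the start window. In the authors' thresholded list of 2053 peaks, 8 of 72 histone genes had one (11.1%), against 6.77% of all 19973 coding genes. The 8 genes shared 5 peaks in 4 clusters. They were his-37, his-67, his-68, his-61, his-62, his-35, his-41 and his-66. By type these were 3 of 17 H2A genes, 3 of 16 H2B genes, 2 of 16 H4 genes and 0 of 20 H3 genes. All 8 were clustered (8 of 67, or 11.9%), and 0 of 5 single genes had one. Because neighbours share peaks and the number of single genes is small, no test was made of either share. The count rests partly on how shared peaks are read and on each replicate. It was 4 when each peak was counted only for its nearest coding start (his-68, his-61, his-41 and his-37), a share of 5.56% against 4.92% of coding genes counted so. It was 5 with the strongest 2053 regions of replicate 2 in place of the thresholded list (his-67, his-68, his-61, his-62 and his-37), where 7.0% of coding genes had one. It was 6 with those of replicate 1, which add his-66, where the share of coding genes was 5.95%. It was 3 with only the thresholded peaks above the median signal of 93.7 (his-67, his-68 and his-37), a share of 4.17% against 3.98% of coding genes. By nearest coding start, above the median signal and with replicate 2 alone (5 of 72, against 7.0%), the histone share was thus near that of coding genes.

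The strongest histone peak was at his-37, an H4 gene on chromosome V (9547105 to 9547607, plus strand). Its signal, a height per region that the authors give without a unit, was 34.8 in replicate 1 and 188 in replicate 2. Pooled, it was 257, at rank 144 of 30000. The summits lay 80 bp (replicate 1), 73 bp (replicate 2) and 68 bp (pooled) upstream of the start. Both replicates thus placed it within 7 bp of each other, but at very different heights. Replicate 2 stood 5.41 times as high as replicate 1, against a median of 1.64 times over the 1315 coding genes that had a thresholded peak and a region in both replicates. The scales of the replicates need not be the same.

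The H4 gene his-67 and the H2A gene his-68 (chromosome I, 9988452 to 9989515) shared the next peak, which lay in the 368 bp between their starts. Its signal was 25.2 in replicate 1 and 55.8 in replicate 2, with 114 in the pooled list, at rank 774. The replicate summits were 2 bp apart. This peak was also 843 bp upstream of alg-5, an Argonaute gene, and was counted for it by the same window.

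The pair his-61 and his-62, which encode H2A and H2B (chromosome IV, 7485834 to 7486916), shared a peak of 87 bp at rank 1243. Its signal was 23.5 in replicate 1 and 42.1 in replicate 2, with 82.1 in the pooled list. The pooled summit lay 104 bp upstream of his-61 and 224 bp upstream of his-62, between the genes, and the replicate summits were 105 bp apart. In the same cluster the H3 gene his-59 and the H4 gene his-60 had only weaker regions. At his-59 the signal was 19.7 in replicate 1 and 16.6 in replicate 2, with 26.2 in the pooled list, and the replicate summits were 382 bp apart. The region of 16.6 lay between both genes and was also that of his-60 in replicate 2. Replicate 1 had none at his-60, and the pooled list had 21.4 with the summit 48 bp downstream of the start.

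The H2A gene his-35 and the H2B gene his-41, head to head 247 bp apart in the cluster of his-37 (chromosome V, 9544659 to 9546264), also shared a peak, but it did not lie between them. Its pooled summit was 127 bp downstream of the his-41 start, within that gene, and 375 bp upstream of his-35. The signal was 67.4 in the pooled list, at rank 1599, and 19.4 in replicate 1. In replicate 2 the his-41 window had no region, and the strongest region in the his-35 window, with 21.4, lay 290 bp from the summit of replicate 1. The peak was also 429 bp upstream of C50F4.6, annotated as a cold-shock protein gene. A further 2 thresholded peaks lay in or beside this cluster outside the member windows. One, with a pooled signal of 107, was 188 bp upstream of mdf-1, a spindle checkpoint gene. The other, with 63.3, was 684 bp downstream of the his-37 start.

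The eighth gene was his-66, an H2B gene on chromosome IV (11400415 to 11400786). Its peak was the weakest of the 5 and the farthest from a histone start, with the summit 923 bp upstream, beyond the 3′ end of its partner his-65 and 255 bp upstream of the piRNA gene 21ur-12556. The signal was 23.1 in replicate 1 and 13.9 in replicate 2, with 61.8 in the pooled list, at rank 1820. Of the 8 genes it was the only one with a higher signal in replicate 1 among the 7 with a region in both replicates. With a window of 500 bp upstream it was not counted, which left 7 genes (9.72%), against 5.42% of coding genes.

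**Figure D1:**
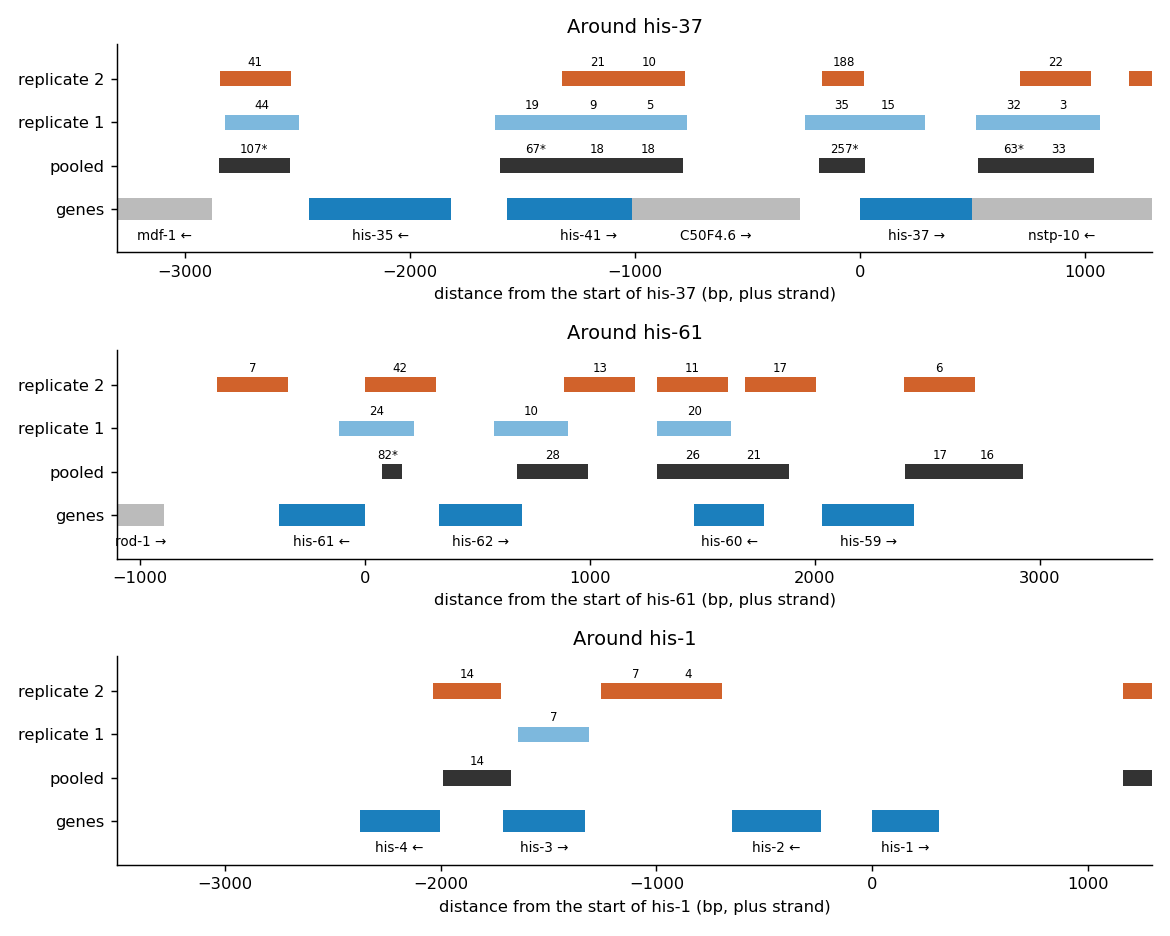
Genes (arrows give the strand, histone genes in blue, other coding genes in grey) and regions of the pooled, replicate 1 and replicate 2 lists, by distance in bp on the plus strand from the start of his-37, his-61 and his-1; numbers are the authors' signals, rounded, and an asterisk marks a thresholded peak. The region upstream of his-37 stands at 34.8 in replicate 1 and 188 in replicate 2, the space between his-61 and his-62 holds a narrow peak of 82.1, and the 1 pooled region in the his-1 cluster stands at 14.3.

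Below the threshold, the pooled relaxed list of 30000 regions had a summit in the window of 21 of 72 histone genes (29.2%), against 36.8% of coding genes. Such relaxed lists have a set length and hold background as well as peaks. Replicate 1 had a region for 22 members (30.6%, against 36.8% of coding genes), replicate 2 for 25 (34.7%, against 37.3%), and both replicates for 18 (25.0%, against 24.1%). Any of the lists had one for 29 (40.3%, against 53.0%). The count of 18 was 11 (15.3%, against 13.6% of coding genes) where summits of the replicates had to lie within 100 bp of each other. It was 8 (11.1%, against 16.6%) with 500 bp upstream, and 9 (12.5%, against 11.4%) with the strongest 10000 regions of each replicate. Summits of the replicates were within 100 bp of each other for the strongest regions of 8 of these 18 genes (44.4%), as they were for 44.5% of the 4819 coding genes with a region in both. Among genes with a thresholded peak, the share was 4 of 7 histone genes (57.1%), against 81.4% of the 1315 coding genes. The 7 genes are not separate sites. The genes his-67 and his-68 share 1 peak (summits 2 bp apart), and his-61 and his-62 share another (105 bp). Replicate 2 stood a median of 1.56 times as high as replicate 1 over the 18 genes and 1.54 times over the 4819.

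Among the 21 genes with a pooled region the signal ranged from 12.02 to 257, with a median of 29.9, and over the 7347 such coding genes the median was 20.7. For thresholded peaks alone the order was the other way, with a median of 82.1 over the 8 histone genes and 106 over the 1352 coding genes. The lowest thresholded peak had a signal of 57.0. Just above it among members was his-66, with 61.8, and the next below were his-42, an H3 gene, with 45.8, the H2B gene his-58, with 42.3, and the H3.3 gene his-72, with 29.9. At his-42 the signal was 12.6 in replicate 1 and 26.4 in replicate 2, with the pooled summit 423 bp upstream and nearest to the start of a non-coding RNA gene, F08G2.15. At his-58 it was 17.9 in replicate 1 and 8.47 in replicate 2. The 21 genes have only 16 distinct pooled regions, so a shared region and its signal count here for each of its genes. Counted per gene, the summit lay 1 to 300 bp upstream of the histone start for 7 genes and over 300 and up to 800 bp upstream for 6. It lay farther than 800 bp upstream for 5 and downstream for 3. For 17 of the 21 genes the start nearest to the summit was that of a histone gene, and for 4 it was that of another gene. The 4 were his-42, his-66, his-72 and his-74. Summits were taken from histone start windows, mostly in clusters, so a histone start nearby is partly given by the choice. No like count was made for other coding genes. For his-31, his-48 and his-58 the nearest start was that of the head-to-head partner, 604, 634 and 635 bp away.

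The H2B genes his-48, his-58 and his-66 share 1 RefSeq product and lie in 3 neighbouring clusters on chromosome IV, and their pooled regions lay at like places, with summits 940, 919 and 923 bp upstream of the start. The pooled signals were 17.8, 42.3 and 61.8. In each gene replicate 1 was the higher library, at 8.55, 17.9 and 23.1, against 4.09, 8.47 and 13.9 in replicate 2. Among the 18 genes with a region in both, the others higher in replicate 1 were his-59 and his-74, and replicate 2 was higher for 13. The pooled regions of his-48, his-58 and his-66 consist of words of 31 bases that occur once in the genome. Of the words in their whole start windows, however, only 23.2%, 20.9% and 21.4% do so. In the spaces between these genes and their head-to-head partners the share is 0%. The like positions thus cannot be told apart from a limit on where reads could be placed. Another gene on chromosome IV with the same product, his-62, whose window was 76.5% unique, did not share these traits. Its pooled summit lay 224 bp upstream, and its signal was 23.5 in replicate 1 and 42.1 in replicate 2.

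**Figure D2:**
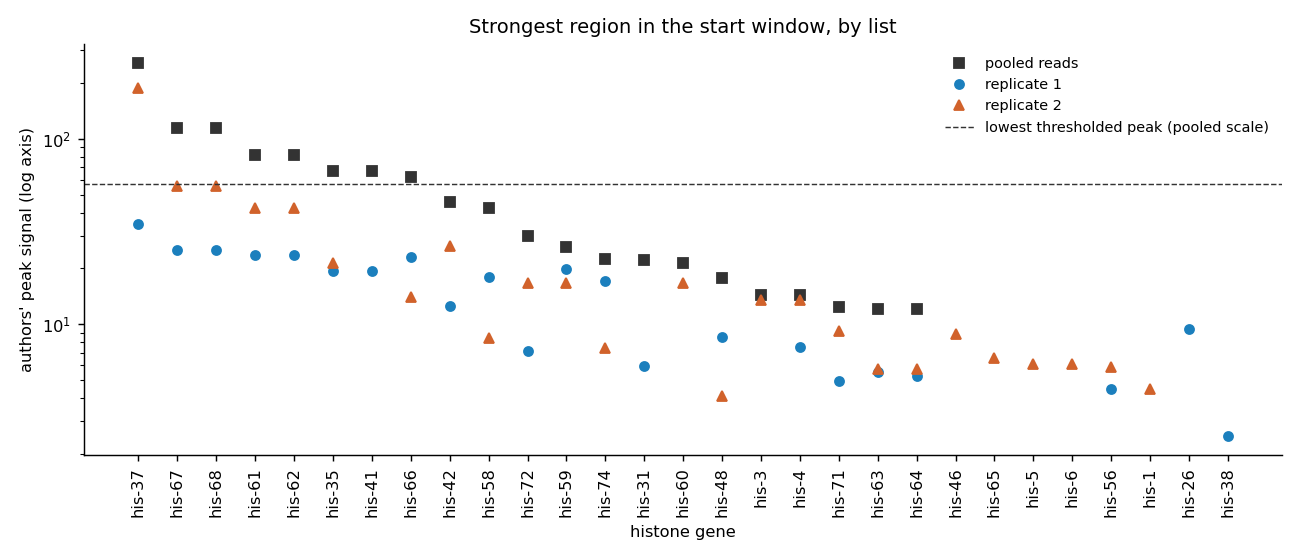
Authors' peak signal (log axis) of the strongest region in the start window of the 29 histone genes with a region in any list, in the pooled list (squares), replicate 1 (circles) and replicate 2 (triangles), ordered by pooled signal; the dashed line is the lowest thresholded peak. Only 8 genes stand above the line, from 61.8 at his-66 to 257 at his-37.

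Of the 67 clustered genes, 41 had no region in any list, and 38.8% had one, against 53.0% of coding genes. The 41 include 28 genes in whose windows under 10% of the words of 31 bases occur once in the genome. No coding gene with such a window had a region. Of the 44 other histone genes, 29 (65.9%) had a region in any list, against 53.7% of such coding genes, a share that this cut itself raises. The H4 gene his-31 had 22.3 in the pooled list and 5.91 in replicate 1, with the pooled summit 926 bp upstream, and none in replicate 2. The H3 and H4 pair his-63 and his-64 shared a pooled region of 12.02, the weakest among the 21 genes, in which 25.9% of the words of 31 bases were unique. A further 8 genes had a region in a replicate but none in the pooled list. These were his-26 and his-38 in replicate 1 alone, with 9.46 and 2.49, and his-46, his-65, his-5, his-6 and his-1 in replicate 2 alone, with 4.46 to 8.85. The last was his-56, with 4.44 in replicate 1 and 5.88 in replicate 2. By type, a region in any list was present for 5 of 17 H2A genes, 6 of 16 H2B genes, 7 of 20 H3 genes and 11 of 16 H4 genes, against 53.0% of coding genes. H4 genes had the highest share there, but not in the pooled list or in both replicates together. In the pooled list 37.5% of H2B and 31.2% of H4 genes had a region (36.8% of coding genes), and in both replicates 31.2% of H2B and 25.0% of H4 genes (24.1% of coding genes).

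The single genes had weak regions or none. The H3.3 gene his-72 had 7.13 in replicate 1 and 16.6 in replicate 2, with 29.9 in the pooled list. The lists did not place it alike, with summits 126 bp upstream in replicate 1, 199 bp downstream in replicate 2 and 719 bp upstream in the pooled list, the last nearer to the start of rpt-6, a proteasome ATPase gene. A thresholded peak with a signal of 77.4 lay beyond the 3′ end of his-72 and 88 bp downstream of the start of Y75B8A.33. The H3.3-like gene his-74 had 17.0 in replicate 1 and 7.42 in replicate 2, with 22.4 in the pooled list, with the summit 946 bp upstream. At his-71, another H3.3 gene, the values were 4.96 in replicate 1 and 9.14 in replicate 2, with 12.4 in the pooled list. The genes his-24 and his-73 had no region in any list. The median pooled signal was 44.1 over the 18 clustered genes with a region and 22.4 over the 3 single genes with one, and 49 clustered and 2 single genes had none. With those at 0 the order turned, with medians of 0 for clustered and 12.4 for single genes. Over the genes with a region, the medians were 17.9 for clustered and 7.13 for single genes in replicate 1, and 13.6 for clustered and 9.14 for single genes in replicate 2. Scaled to the pooled list, the clustered median was 49.3 by replicate 1 and 26.2 by replicate 2, so it depends on the library. The ranges overlapped, at 12.02 to 257 for clustered and 12.4 to 29.9 for single genes. Counted per length with 1000 bp on each side, the 14 clusters held 0.344 pooled regions per kb, the 5 single genes 0.854 and the nuclear genome 0.299. For single genes the density was 0.925 in replicate 1 and 0.498 in replicate 2, so this difference varied with the library. It also rests on few loci. Of the 12 pooled regions at single genes, 6 were at his-72, 3 each at his-71 and his-74, and 0 at his-24 and his-73.

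Copies of a histone gene can be too alike for a short read to be placed, and how the authors treated reads with several matches is not given in the sources used here. As a measure of this, the share of words of 31 bases that occur once in the genome was computed for each start window. Its median was 22.4% over the 72 histone genes and 100% over all coding genes. It was under 10% in the windows of 28 histone genes, and none of these had a region in any list. The same held for all 257 coding genes with such windows, the 28 included. At those 28 genes a lack of binding cannot be told apart from reads that could not be placed. The median was 69.6% for the 29 histone genes with a region in any list and 0.171% for the 43 with none. Over the 67 clustered genes it was 20.9%, and single genes ranged from 84.6% to 100%, so their windows differ by this measure too. Its part in the counts was not tested. With words of 50 bases, again 28 histone genes were under 10%, with 0 regions.

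The 2 clusters on chromosome V with the genes his-49 to his-54, and his-17 to his-22 with his-27 and his-28, had the lowest shares of unique words. Over the 6 genes of one and 1000 bp on each side 0% of the words were unique, and over the 8 genes of the other 8.87% were. Neither had a region in any list. The largest cluster, 13 genes on chromosome II with 19.2% unique words, had a pooled region for his-42 alone, the gene at its end, whose window was 66.5% unique. The third cluster with no region in any list, his-69 and his-70 on chromosome III, was 94.6% unique. RefSeq describes both as H3.3-like.

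Among the 44 histone genes with at least 10% unique words, 8 (18.2%) had a thresholded peak, against 6.86% of the 19716 such coding genes. These 8 genes share 5 peaks. The cut took out 28 of 72 histone genes but only 257 of 19973 coding genes, none of them with a region. The rise of the histone share from 11.1% thus follows from the cut itself. A pooled relaxed region was present for 21 of the 44 (47.7%), against 37.3% of the coding genes. In the windows with 90% or more unique words, 4 of 9 histone genes had a thresholded peak (44.4%), namely his-37, his-35, his-41 and his-68, against 7.31% of 17065 coding genes. In the class of 50% to 90%, 3 of 20 (15%) had one, against 4.31% of 2249. The 4 genes share 3 peaks, and 3 of them lie in 1 cluster, so these shares rest on few sites and were not tested.

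**Figure D3:**
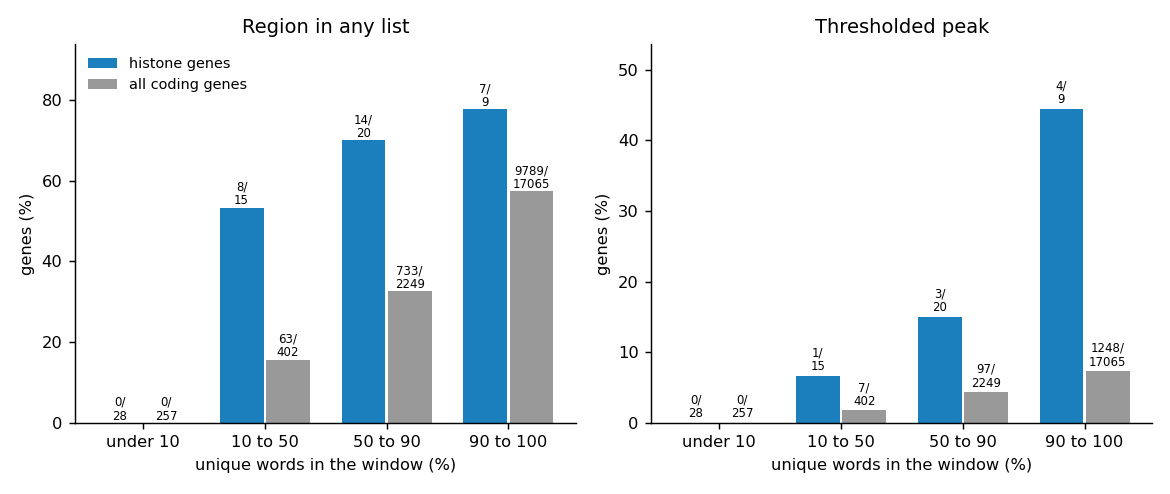
Share of genes (%) with a region in any list (left) and with a thresholded peak (right), for histone genes (blue) and all coding genes (grey), by the share of words of 31 bases in the start window that occur once in the genome; numbers are genes with a region over genes in the class. In the lowest class 0 of 28 histone genes and 0 of 257 coding genes had a region.

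**Figure D4:**
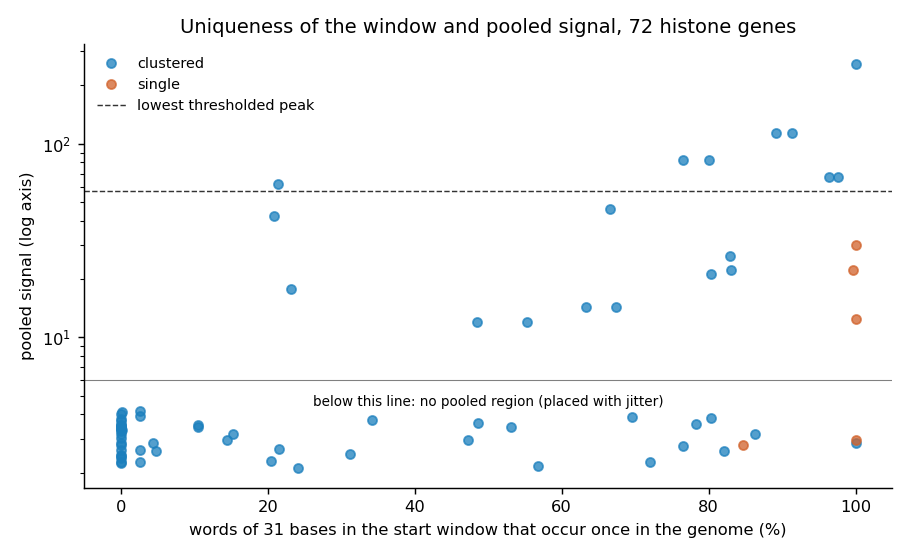
Pooled signal (log axis) against the share of unique words in the start window (%) for the 72 histone genes, clustered in blue and single in orange; genes with no pooled region are placed below the grey line with random vertical jitter. The 28 genes under 10% all lie below that line, and the highest point is his-37 at 257.

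The genes with introns stood somewhat apart from the others by count. Ensembl gives more than 1 exon to 8 members, namely his-24, his-35, his-37, his-41, his-57, his-71, his-72 and his-74. Of these, 3 (37.5%) had a thresholded peak and 6 (75.0%) a pooled region, against 6.77% and 36.8% of all coding genes. Of the 64 genes with 1 exon, 5 (7.81%) had a thresholded peak, near the share of coding genes, and 15 (23.4%) a pooled region. The 3 with a thresholded peak lie in 1 cluster, so this count holds 1 locus. The median share of unique words was 99.8% over the 8 genes and 20.7% over the 64, so the exon count and uniqueness cannot be told apart here.

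Most of the shared stretches between paired starts held no summit, and most of those had few unique words. The stretches are only 227 to 368 bp long, and the nuclear genome held 0.299 pooled regions per kb. No like count was made for other stretches of this length, so whether few summits is particular to histone pairs was not tested. Of the 31 head-to-head pairs, 2 had a thresholded summit between the starts (his-67/his-68 and his-61/his-62), 3 a pooled summit, 3 a summit of replicate 1 and 4 one of replicate 2. In 26 pairs no list had a summit there, and in 20 of the 26 at most 13.6% of the words of 31 bases were unique. The added pooled summit was between the H2B gene his-4 and the H2A gene his-3, with a signal of 14.3 and, in replicate 2, 13.6. In the other 6 pairs without a summit, 75.2% to 100% of the words were unique. No region of any list reached into the stretch of his-31/his-32, his-2/his-1 or his-38/his-40, all of H3 and H4, or of his-8/his-7, of H2B and H2A. A region of replicate 2 reached into that of his-6/his-5, and the thresholded peak described above into that of his-35/his-41.

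The 250 bases upstream of the start were searched on both strands for 4 short words. TATAAA, a form of the TATA box, was present in 47 of 72 histone genes (65.3%), against 35.2% of all coding genes, and CCAAT in 37 (51.4%), against 38.9%. CTCTCT was found in 29 (40.3%), against 15.5%, and GCGCGC in 0, against 3.28%. Among the 8 genes with a thresholded peak, TATAAA was present in 5, CCAAT in 4 and CTCTCT in 5. These stretches had a median GC content of 46.4% in histone genes and 33.2% in all coding genes. Paired genes overlap in these stretches, and copies repeat them.

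Of all words of 8 bases, GGGGACAC had the largest difference in share between histone genes and all coding genes. It was present in 44 of 72 histone genes (61.1%), against 0.471% of all coding genes. TGCGGGGA, which overlaps it by 5 bases in the sequences shown, was present in 32 (44.4%), against 0.431%. Both were chosen from these promoters, so the shares describe and test nothing. Either word was upstream of 13 of 17 H2A genes, 12 of 16 H2B genes, 9 of 20 H3 genes and 11 of 16 H4 genes. Of the 8 genes with a thresholded peak 6 had one, and so did 40 of the 64 without (62.5%). Of the 44 genes with at least 10% unique words, 22 had one of the words, 6 of them with a thresholded peak. Among these 6, his-67 and his-68 share 1 peak, and his-61 and his-62 share another. The summit of his-66 lay 923 bp upstream, outside the 250 bases searched. Of the 22 without a word, 2 had a peak, his-35 and his-41, which share it. With so few peaks, whether word and peak go together was not tested. Outside the histone genes, either word was upstream of 3 of the 1344 genes with a thresholded peak (0.223%) and of 101 of all 19901 genes (0.508%). A match is a string of letters, and no binding is shown by it.

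Genes for other histones and for histone supply were examined as a list of 29 related genes. A thresholded peak was present for 7 (24.1%), against 6.77% of coding genes, and a pooled region for 22, against 36.8% of coding genes. No count by nearest start is given for this list. The windows of the 29 genes were 70.9% to 100% unique. None of the 8 linker histone genes of the hil family had a thresholded peak, and 4 of 8 had a pooled region, against the same 36.8%, with signals from 8.65 at hil-7 to 15.6 at hil-8. The variant genes with a peak were htz-1, for the variant H2A.Z, and hcp-3, for the centromeric H3, with summits 320 and 683 bp upstream. At htz-1 the signal was 67.4 in replicate 1 and 125 in replicate 2, with 207 in the pooled list. At hcp-3 it was 52.2 in replicate 1 and 36.8 in replicate 2, with 130 in the pooled list.

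The gene cdl-1, for the protein that binds the stem-loop of histone mRNAs, had a peak 148 bp upstream of its start. Its signal was 32.0 in replicate 1 and 36.7 in replicate 2, with 86.1 in the pooled list. The chaperone genes with a peak were lin-53, unc-85, spr-2 and nasp-2. Most genes of the list had no thresholded peak, among them rba-1, asfl-1 and nasp-1, and the variant genes htas-1 and cpar-1. At lin-53, for a histone-binding WD-repeat protein, the signal was 78.2 in replicate 1 and 142 in replicate 2, with 240 in the pooled list. At unc-85, for an Asf1-type chaperone, it was 13.3 in replicate 1 and 62.9 in replicate 2, with 74.8 in the pooled list. At spr-2, for a protein of the nucleosome assembly family, it was 21.1 in replicate 1 and 45.3 in replicate 2, with 87.1 in the pooled list. The highest pooled signal of the list was 344 at nasp-2, with the summit 968 bp upstream, and its replicates were far apart, at 9.50 in replicate 1 and 146 in replicate 2. At his-24, the H1 gene among the members, no list had a region, although its window was 100% unique.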

How the data were processed

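Peak lists on ce11 were used. Per the manifests deposited by the authors, relaxed lists of 30000 regions were made from replicate 1, from replicate 2 and from both pooled, each with a further alignment that also entered the control normalized tracks, and an optimal list was thresholded by irreproducible discovery rate (IDR). Aligner, peak caller, settings and IDR threshold were not given in the sources used here. Signal values as deposited have no unit and were compared within a list, save for the replicate ratios, and the deposited −log10 q-value was used in 1 alternative ranking. All 2053 thresholded peaks were found in the pooled list. Region ends fell within the reference lengths on all 7 chromosomes. Lists on ce10 were not used.

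Gene starts came from Ensembl release 115 (WBcel235), and symbols, products and sequence from RefSeq on the same build. Clusters were chains of members with at most 5 kb between gene bodies. Unique words were counted over both strands of the whole genome. Python 3.11.15, numpy 2.4.6 and pandas 2.3.3 were used, and the code for windows, clusters and uniqueness was tested on simulated data. With 1 group of 2 replicates no test was made, and all shares are descriptions. Members and lists were chosen with earlier results of these data known. Genes named were all members with a thresholded peak, the 12 with the highest pooled signal, the 3 below the threshold, clusters at the extremes and related genes with a peak; others were named after their values were seen.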

Additional observations from a re-analysis of the deposited data

How the results depend on the processing

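Of 45 alternative values, 32 stayed within 1.5 times the count or within 1 SD of the median, and 13 moved. The SD was that of only 2 replicate medians scaled to the pooled list, 16.3 for clustered and 1.40 for single genes. The 45 values are not independent, since all genes counted were clustered and the clustered counts repeat the overall ones. The 32 also include the values for other cluster distances, which could not move. The count of histone genes with a thresholded peak, 8 in all and 8 among clustered genes, was 7 with 500 bp upstream, 9 with 2000 bp upstream and 500 bp downstream, and 8 by any overlap. It was 4 when a peak counted only for the nearest coding start or, in an alternative chosen after seeing the data, the nearest start of any gene. Shared peaks then count once, and the peak of his-66 lies nearer to another start. With only the peaks above the median signal it was 3, since fewer peaks enter. Without one replicate it ranged from 5 to 6 overall and among clustered genes, and 5 genes (his-67, his-68, his-61, his-62 and his-37) were counted with each replicate alone. The count of single genes was 0 under each alternative run. With only 5 such genes, and 6.77% of coding genes with a thresholded peak, an unchanged 0 says little about stability. Cluster distances of 2 kb and 10 kb gave the same 67 and 5 genes. These values could not move, because the nearest member lay at most 987 bp or at least 633914 bp away.

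Genes with a region in both replicates, 18 in all, numbered 11 when any summit of one replicate had to lie within 100 bp of one of the other, and 15 within 250 bp. They numbered 8 with 500 bp upstream, 25 with 2000 bp, and 9 with only the strongest 10000 regions of each replicate. With genes that lack a region counted as 0, the median pooled signal was 0 for clustered and 12.4 for single genes. No paired analysis was possible because there was 1 group and no test. Depth is unknown, so no statement could be made on what it limits.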
